A study of Mus musculus with 10 samples.

Results

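The relative use of alternative transcripts was compared between all rd10 retinas and wild-type (WT) retinas. Members were selected on measured values: genes with a mean estimated count of 100 or more in both genotypes and at least 2 transcripts that each made up 10% or more of the gene in either genotype. These were 7033 of the 48954 genes with an assigned transcript, with 18366 transcripts tested out of 133908. Strand-specific mRNA of 10 retinal libraries from female mice at P36 was sequenced. The rd10 mice (B6.CXB1-Pde6brd10/J) are mutant for Pde6b, which encodes part of the phosphodiesterase of rods, and lose their rods in the first weeks of life. Each rd10 mouse received intravitreal injections of 1 μL at P10 and P24, of 20 μM halofantrine (HAL; libraries H1, H2 and H3) or of the vehicle DMSO (D1, D2 and D3). The WT mice received DMSO at both times (W1 to W4), so no WT mouse received halofantrine and every mouse was injected. The labels give no separate strain for the WT mice and do not say whether each library is 1 mouse, so p-values measure the spread between libraries.

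Most multi-exon genes can give several mRNAs, through alternative promoters, alternative splicing of internal exons and alternative polyadenylation. Photoreceptors are known for a splicing programme of their own that includes short exons in cilium and synapse genes, and RNA-binding proteins of the Musashi family are known to promote it. Neurons share another set of microexons that depends on Srrm4, and Muller glia, microglia and inner neurons use further variants. Whole retina was sequenced here, so fewer cells of a type and less of a transcript per cell cannot be told apart.

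The libraries held 15900825 (D3) to 39094544 (D2) estimated counts. Rod RNA was strongly reduced: all 9 rod markers fell in total count, and their summed level was 75268 to 79643 CPM (counts scaled by library totals after TMM normalisation) in W1 to W3 and 3794 to 11210 CPM in rd10. Pde6b was at 2739 to 2909 CPM in W1 to W3 and at 125.1 to 385.6 CPM in rd10, where this RNA is that of the mutant allele. The library labelled WT W4 goes against its label, with 91.7 CPM of Pde6b and a rod marker sum of 2965 CPM, below every rd10 library. It was therefore left out, and its value is given beside those of the other libraries for the members described in most detail. WT, D1, D2 and H1 are labelled batch 1 and D3, H2 and H3 batch 2. By their titles the WT libraries belong to another set than the rd10 libraries of batch 1, so set and genotype cannot be told apart. The rod marker sum was 3794 to 4140 CPM in the first and 7668 to 11210 CPM in the second rd10 batch. The summed markers of Muller glia (3760 to 3890 CPM in WT against 5720 to 7089 CPM in rd10), gliosis (137 to 173 against 801 to 924 CPM), microglia (19.2 to 26.5 against 78.4 to 96.6 CPM) and bipolar cells (1297 to 1375 against 2099 to 2536 CPM) lay higher in each rd10 library than in W1 to W3. The sums of amacrine, horizontal and ganglion cell markers also lay higher in each rd10 library, while those of cones and of the retinal pigment epithelium overlapped. Rgr, a marker of that epithelium, was at 116 CPM in W3 against 23.8 and 15.1 CPM in W1 and W2. Every share below is measured against these differences in cell makeup, whose part in the shares was not tested.

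Transcript usage differed in 779 of 7033 genes (11.1%), by the gene-level test of edgeR's diffSpliceDGE at an adjusted p under 0.05. Among the large differences whose calls held whichever library was left out were switches of the leading transcript in Rorb, Crb1, Slc25a25, Kdm4c and Adra2a, in which a transcript making up under 30% of the gene in one genotype made up most or much of it in the other. The transcript-level test asks whether a transcript's change differs from that of its whole gene, to which the transcript itself contributes. It called 220 of 18366 transcripts (1.20%), of which 110 rose in rd10 (0.599%) and 110 fell. For a transcript that makes up most of its gene, a missing call does not show an unchanged share. Klhl3-202 rose by as many points as Klhl3-201 fell, at an edgeR adjusted p of 0.132 against 0.0358. The median absolute difference of share was 15.03 percentage points over called and 3.34 points over all tested transcripts. In 430 called genes at least 1 transcript differed by 10 points or more, and in 105 by 20 points or more. The leading transcript differed between genotypes in 132 called genes (16.9%), against 652 of all members (9.27%).

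Because a transcript could enter through the group in which it is high, 2464 tested transcripts reached 10% in 1 genotype only, and 142 of the called transcripts were of this kind. Of those named here these are Mast2-202, Map2-201, Cep290-206, Epb41l2-207, Dlg4-201, Dlg4-204, Ubap2-202, Prom1-208, Cacna1f-202, Thsd4-202, Palb2-202, Camk2d-206, Zfp516-201, Crb1-205 and Pde2a-209, whose selection used the difference that was then tested. Among the 6248 genes with at least 2 transcripts at 10% in each genotype, 643 (10.3%) were called. With the 10% minimum applied to the mean of all 9 libraries, without regard to genotype, 715 genes and 161 transcripts were called. At the edges of the selection, Rtkn entered with a mean count of 100 in the lower group and 1700088E04Rik, at 99.985, did not. The second transcript of Zfp563 reached 10.0004% and that of Kcnn1 9.9978%. Without any test, the shares of 2341 transcripts (12.7%) did not overlap between the genotypes, and 195 of the 220 called transcripts were among them.

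**Figure D1:**
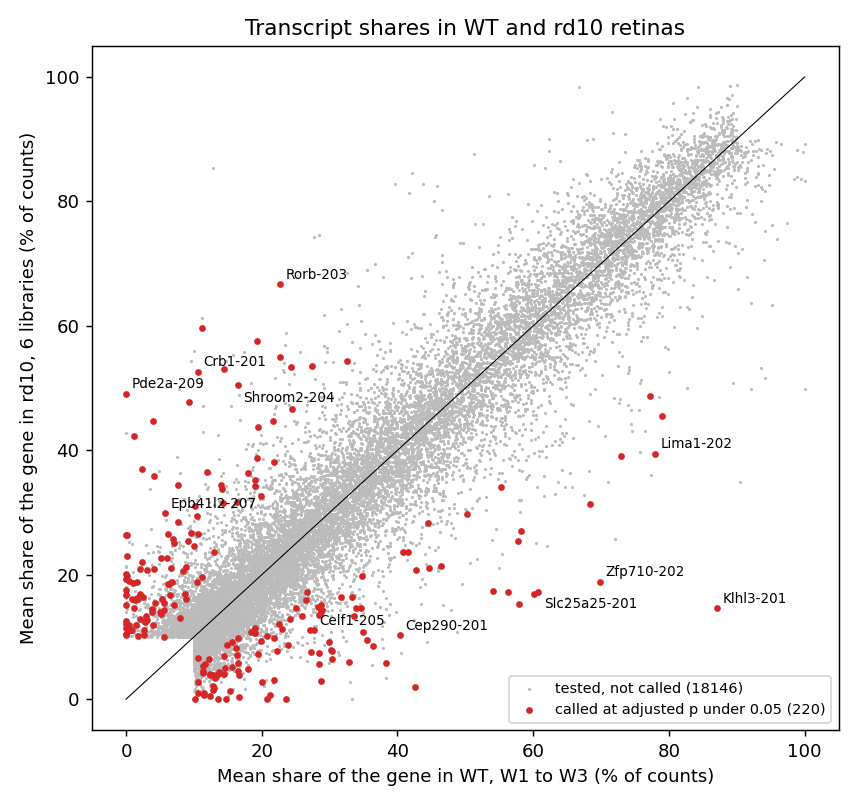
Mean share of the gene in the 6 rd10 libraries (vertical axis, % of the gene's counts) against that in W1 to W3 (horizontal axis) for the 18366 tested transcripts; red points are the 220 called by the transcript-level test and the line marks equal shares. The empty corner at the lower left is the 10% minimum; Rorb-203 and Crb1-201 lie far above the line and Klhl3-201 and Lima1-202 far below it.

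The call count depended on single libraries. Without D3, the rd10 library with the highest rod marker sum (11210 CPM) and the fewest counts, 1282 genes and 387 transcripts were called. Without W1, W2 or W3 the gene count was 505, 511 and 491. Batch 1 libraries alone gave 1110 genes, and a model with a batch term gave 674. The quasi-binomial model, which uses the spread of the shares between libraries, called 462 genes, 371 of them among the 779, and 852 transcripts, 149 of them among the 220.

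Calls were more frequent among abundant genes: 95 of 1759 genes (5.40%) were called with the lowest mean counts and 361 of 1758 (20.5%) with the highest. Among members whose total count fell, 395 of 2726 (14.5%) were called in usage, against 180 of 2036 (8.84%) among those that rose and 204 of 2271 (8.98%) among those whose total was not called. Over all 18110 genes tested for total count by edgeR, 5436 (30.0%) rose and 5234 (28.9%) fell in rd10.

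Rorb encodes the nuclear receptor RORβ, whose RORβ2 form arises from an alternative first exon and is known from retina and pineal gland. The share of Rorb-203 was 23.5%, 27.1% and 17.5% in W1, W2 and W3, 65.6%, 69.1% and 56.9% in D1, D2 and D3, and 74.0%, 65.6% and 69.3% in H1, H2 and H3. All rd10 libraries lay above all WT libraries. The mean rose from 22.7% ± 4.84 (SD, n = 3) to 66.7% ± 5.72 (SD, n = 6; edgeR adjusted p = 2.05e-06). Rorb-201, which has another first exon, fell from 68.3% ± 4.19 to 31.4% ± 5.34, while the total count of the gene fell by 0.80 on the log2 scale. W4 had 69.0% of Rorb-203, inside the rd10 range.

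Crb1 encodes an apical polarity protein of photoreceptors and Muller glia, with forms that differ between these cells. Crb1-201 made up 9.46%, 12.8% and 9.41% of the gene in W1 to W3. In rd10 it made up 59.7%, 61.5% and 40.1% in the DMSO libraries and 61.1%, 45.3% and 48.2% in the HAL libraries. The groups did not overlap, and the 3 batch 2 libraries (D3, H2 and H3) were the lowest of the 6, with W4 at 66.0%. The mean rose from 10.6% ± 1.96 to 52.6% ± 9.27 (edgeR adjusted p = 2.08e-08), Crb1-204 fell from 73.0% ± 2.03 to 39.1% ± 7.05, and Crb1-205, a retained-intron transcript, fell from 16.3% to 7.11%. The pair Crb1-201 and Crb1-204 differs by its last exon and by a coding cassette exon that Crb1-201 alone holds.

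Slc25a25, a mitochondrial ATP-Mg/phosphate carrier, changed its first exon. Slc25a25-201 was at 58.9% to 63.4% in W1 to W3 and at 8.51% to 29.8% in rd10, with H2 and D3 highest and W4 at 14.03%. It fell from 60.8% ± 2.33 to 17.2% ± 9.01 (edgeR adjusted p = 1.63e-05), and Slc25a25-202 rose from 14.4% ± 0.638 to 53.1% ± 7.12. The total count of the gene fell by 1.81 on the log2 scale.

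Shroom2, a regulator of the actin cytoskeleton, was chosen after its values were seen. Its noncoding transcript Shroom2-204 was at 15.05%, 16.7% and 17.7% in W1 to W3, at 55.5%, 51.4% and 42.4% in D1 to D3 and at 57.2%, 50.7% and 45.6% in H1 to H3. The groups did not overlap, W4 was at 54.1%, and the mean rose from 16.5% ± 1.35 to 50.4% ± 5.68 (edgeR adjusted p = 1.63e-05).

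Kdm4c, a histone demethylase gene, and Adra2a, an adrenergic receptor gene, showed differences of similar size without a difference in coding sequence between the transcripts compared. Kdm4c-202 fell from 60.1% ± 5.05 to 16.9% ± 7.02 (edgeR adjusted p = 0.000192) against Kdm4c-201, which has another first exon. Adra2a-201 fell from 56.2% ± 2.91 to 17.2% ± 4.63 (edgeR adjusted p = 0.00251), with 53.0% to 58.5% in WT and 8.87% to 22.5% in rd10 and 16.3% in W4. Adra2a-202, the other tested transcript, is annotated as 3592 nt long and Adra2a-201 as 4832 nt.

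Lima1 encodes the actin-binding protein EPLIN, whose long and short forms come from alternative promoters. Lima1-202, with the shorter coding sequence, was at 75.2% to 79.7% in W1 to W3 and at 34.8%, 46.6%, 61.7%, 24.6%, 30.6% and 38.3% in D1 to D3 and H1 to H3. The groups did not overlap, D3 was nearest to WT, and W4 was at 20.7%. The mean fell from 78.0% ± 2.38 to 39.5% ± 13.2 (edgeR adjusted p = 0.0102, and up to 0.0968 when a WT library was left out).

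**Figure D2:**
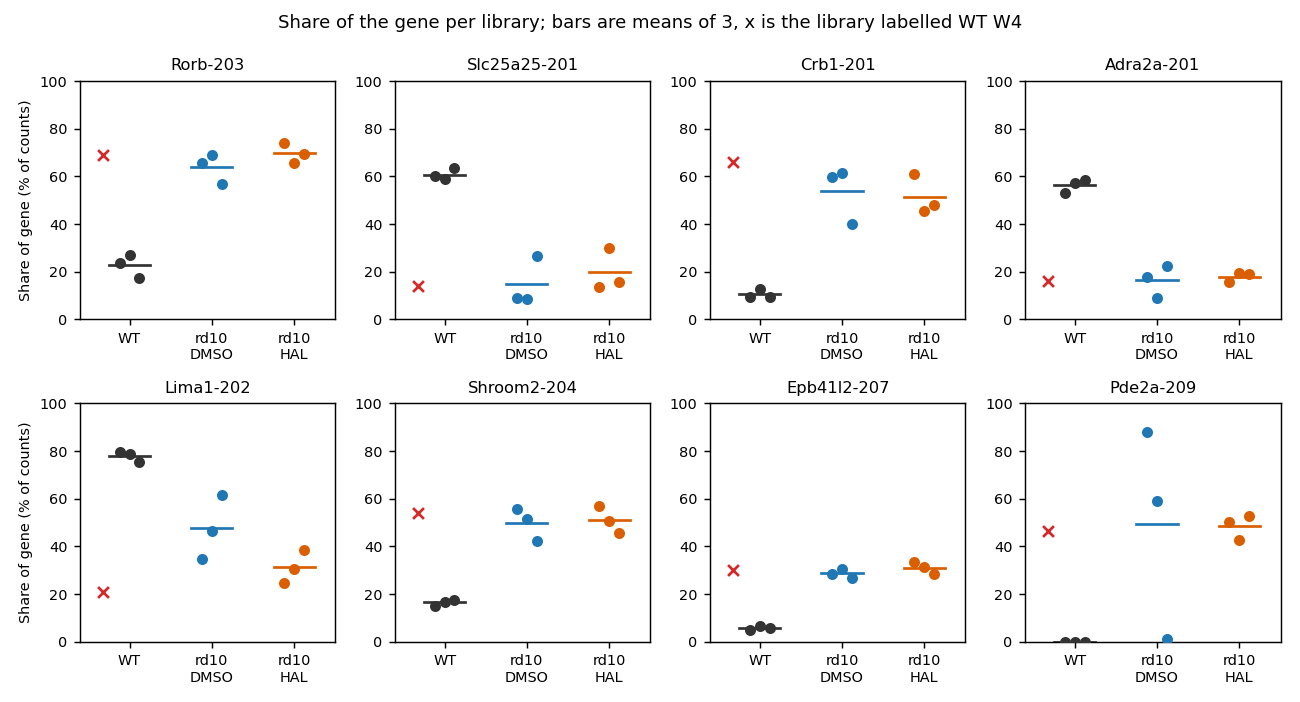
Share of the gene (vertical axis, % of counts) in each library for 8 transcripts; points are libraries, bars the means of 3 libraries per group, and the x is the library labelled WT W4. Rorb-203, Crb1-201, Shroom2-204 and Epb41l2-207 lie higher in every rd10 library than in W1 to W3 and Slc25a25-201, Adra2a-201 and Lima1-202 lower, while Pde2a-209 ranges from 1.33% to 88.1% in rd10.

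Klhl3, an adaptor of a Cullin ubiquitin ligase, showed the largest difference. The noncoding transcript Klhl3-201 was at 81.0% to 90.3% in W1 to W3 and at 15.3%, 2.32%, 20.3%, 38.9%, 9.12% and 1.57% in D1 to D3 and H1 to H3, falling by 72.5 points (edgeR adjusted p = 0.0358). The coding Klhl3-202 made up the rest. The call was lost when any of 6 libraries (W1, W2, W3, D1, D2 or H2) was left out, with an adjusted p of up to 0.170, and with a batch term (edgeR adjusted p = 0.343). W4 had 0.124% of Klhl3-201. Zfp710-202, of a zinc finger gene, fell from 69.9% ± 13.8 to 18.9% ± 11.2 (edgeR adjusted p = 0.0266), and Palb2-202, of a gene for homologous recombination, fell from 42.5% ± 29.1 to 1.95% ± 3.13 (edgeR adjusted p = 0.0487). W3 had 9.41% of Palb2-202 against 63.8% and 54.4% in W1 and W2. Each of these 2 calls held in only 1 of the 9 fits that left out a library, and neither held with a batch term (edgeR adjusted p = 0.0950 and 0.272). The quasi-binomial model gave Palb2-202 an adjusted p of 0.0571.

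In 3 further genes with large differences the rd10 libraries differed widely among themselves. Pde2a-209, a nonsense-mediated decay transcript of a cyclic nucleotide phosphodiesterase gene, was at 0.0013%, 0.0052% and 0% in W1 to W3 and at 88.1%, 58.9%, 1.33%, 50.4%, 42.8% and 52.9% in D1 to D3 and H1 to H3. Thsd4-202 (an extracellular matrix protein gene) was at 0%, 0% and 3.71% in WT and at 7.43% to 63.2% in rd10. Ubap2-202 was at 3.81% to 4.11% in WT and at 19.6% to 86.6% in rd10. Its coding sequence differs from that of Ubap2-201 by 3 nt, and how many reads separate that pair was not measured. edgeR called these transcripts (adjusted p = 0.0100, 0.00330 and 0.000422), while the quasi-binomial model gave an adjusted p of 0.796, 0.567 and 0.259, and the edgeR p of Pde2a-209 was up to 0.0996 without W1 or W2. W4 had 46.3%, 0.221% and 3.13%, so that it lay with WT for Thsd4 and Ubap2.

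Pcdhga1-202 and Zfp516-201 complete the genes with the largest differences. Pcdhga1-202 was at 57.9% ± 8.15 in WT and 15.4% ± 5.38 in rd10 (edgeR adjusted p = 0.000415). Pcdhga1 belongs to the clustered protocadherins, whose transcripts share their 3′ exons with neighbouring genes, so these shares are uncertain. Zfp516-201 rose from 9.33% ± 4.99 to 47.8% ± 19.5 (edgeR adjusted p = 0.00449, up to 0.0604 without W1 or W2, and 0.0678 with the quasi-binomial model).

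Some called genes differed in the use of short coding exons, among them the cilium genes Cep290, Ttc8 and Cc2d2a and the synaptic channel gene Cacna1f. In each of 741 called genes the transcript that gained most share was compared with the one that lost most, exon by exon. Of the coding cassette exons that the WT-enriched transcript alone held, 24 of 111 (21.6%) were 27 nt or shorter, against 13 of 147 (8.84%) of those that the rd10-enriched transcript alone held. Among genes not called these were 68 of 663 (10.3%) in the WT direction and 9.30% in the rd10 direction. The 27 nt limit and the exons printed here were chosen after the values were seen, and these counts carry no test.

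The sequences of 9 coding exons of 42 nt or less are shown because their inclusion is described next. They were read from the GENCODE M21 transcripts, 5′ to 3′ on the mRNA, with the exon in capitals and 15 bases of the neighbouring exons in lower case. The first 7 exons were more included in WT.
Cep290-201, 21 nt exon: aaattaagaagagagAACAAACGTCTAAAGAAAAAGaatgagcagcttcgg
Cacna1f-202, 21 nt exon: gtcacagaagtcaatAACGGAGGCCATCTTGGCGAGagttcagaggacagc
Ttc8-201, 30 nt exon: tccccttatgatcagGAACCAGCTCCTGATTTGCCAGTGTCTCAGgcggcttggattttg
Cc2d2a-201, 15 nt exon: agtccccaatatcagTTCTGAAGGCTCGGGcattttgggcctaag
Cc2d2a-201, 21 nt exon: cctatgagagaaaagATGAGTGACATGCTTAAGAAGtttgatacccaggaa
Gulp1-206, 11 nt exon: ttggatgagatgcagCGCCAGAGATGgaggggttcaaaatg
Ndrg2-201, 42 nt exon: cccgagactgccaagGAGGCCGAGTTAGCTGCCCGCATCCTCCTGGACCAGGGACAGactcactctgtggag
Mast2-202, 21 nt exon: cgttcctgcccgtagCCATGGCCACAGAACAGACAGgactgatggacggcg
Camk2d-206, 42 nt exon: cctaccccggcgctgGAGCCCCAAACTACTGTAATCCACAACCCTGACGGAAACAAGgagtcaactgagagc

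In the GRCm38 build of that annotation these exons lie at chr10:100495641-100495661 (Cep290), chrX:7627688-7627708 (Cacna1f), chr12:98937120-98937149 (Ttc8), chr5:43716937-43716951 and chr5:43728271-43728291 (Cc2d2a), chr1:44790696-44790706 (Gulp1), chr14:51911086-51911127 (Ndrg2), chr4:116333413-116333433 (Mast2) and chr3:126808208-126808249 (Camk2d). All are internal exons inside the coding sequence; Ndrg2 and Mast2 are read from the minus strand and the others from the plus strand. The authors' counts refer to GRCm39.

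Exon inclusion was computed as the counts of all transcripts that hold the exon, as a percentage of those that hold it or run across it without it. Cep290 encodes a scaffold of the photoreceptor connecting cilium. Inclusion of its 21 nt exon was 87.7%, 95.1% and 89.7% in W1 to W3, 54.4%, 63.6% and 75.6% in D1 to D3, and 44.8%, 63.2% and 52.5% in H1 to H3. Every rd10 library lay below WT, and D3 was the highest of them. The transcript Cep290-201 fell from 40.4% ± 6.73 of the gene to 10.3% ± 8.71 (edgeR adjusted p = 0.00798, up to 0.0749 without W2 or W3 and 0.117 with a batch term), Cep290-206, which lacks the exon, rose from 7.65% to 34.5%, and W4 had an inclusion of 70.6%.

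Cacna1f encodes the pore of the calcium channel at photoreceptor ribbon synapses. Inclusion of its 21 nt exon was 78.6%, 74.1% and 81.7% in W1 to W3, 33.7%, 39.2% and 52.6% in D1 to D3, and 38.4%, 44.1% and 46.5% in H1 to H3. The groups did not overlap, and W4 was at 42.8%. Cacna1f-202 fell from 28.7% ± 5.12 to 2.98% ± 2.44 of the gene (edgeR adjusted p = 4.45e-06), and the total count of Cacna1f fell by 1.32 on the log2 scale. Cacna1f-201, which lacks the exon, was at 18.4% ± 2.89 in WT and 50.8% ± 6.46 in rd10.

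Ttc8 encodes a BBSome subunit and Cc2d2a a transition zone protein of cilia. The 30 nt exon of Ttc8 was included at 69.4% to 74.6% in W1 to W3 and at 40.9% to 50.1% in rd10, with W4 at 34.4%. The 15 nt and 21 nt exons of Cc2d2a lie on the same transcript, so that both had an inclusion of 80.9% ± 2.30 in WT and 60.3% ± 4.20 in rd10. Usage of both genes was called at the gene level (edgeR adjusted p = 2.37e-06 for Ttc8 and 0.0156 for Cc2d2a).

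Gulp1, an adaptor for engulfment of dying cells, had the largest difference among the short exons: its 11 nt exon was included at 73.5% ± 3.73 in WT and 29.4% ± 11.2 in rd10. The 42 nt exon of Ndrg2, a gene expressed in astrocytes and Muller glia, was at 58.9% to 63.0% in W1 to W3 and at 27.7% to 44.5% in rd10. In the other direction, the 21 nt exon of Mast2, a kinase gene, was at 3.78%, 12.1% and 17.7% in W1 to W3 and at 26.7% to 32.1% in rd10. The 42 nt exon of Camk2d, a calmodulin-dependent kinase gene, was at 43.4% ± 2.32 in WT and 62.8% ± 2.34 in rd10, and Camk2d-206 rose from 8.34% to 20.5% (edgeR adjusted p = 2.05e-05).

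Counting coding exons of up to 42 nt in called genes whose transcript share differed by at least 10 points without overlap, 25 exons in 23 genes were found. The exon was on the WT-enriched transcript in 21 and on the rd10-enriched transcript in 4. The 42 nt limit was chosen after the values were seen. The other genes with a lower inclusion in rd10 were Ergic3, Anxa6, Med23, Nckap1, Nrbp1, Ppp3cc, Kif1b, Vps39, Bnip2, Elmo2, Mbnl2, Ndrg3 and Cbs. The exons with a higher inclusion were those of Mast2, Camk2d, Clpx (65.7% in WT and 81.6% in rd10) and Dnmbp (48.2% and 63.6%, with overlapping groups). Coding cassette exons of any length in called genes numbered 111 on the WT-enriched and 147 on the rd10-enriched transcripts. The transcripts were required to differ without overlap, so the counts of short exons are a description with no test.

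**Figure D3:**
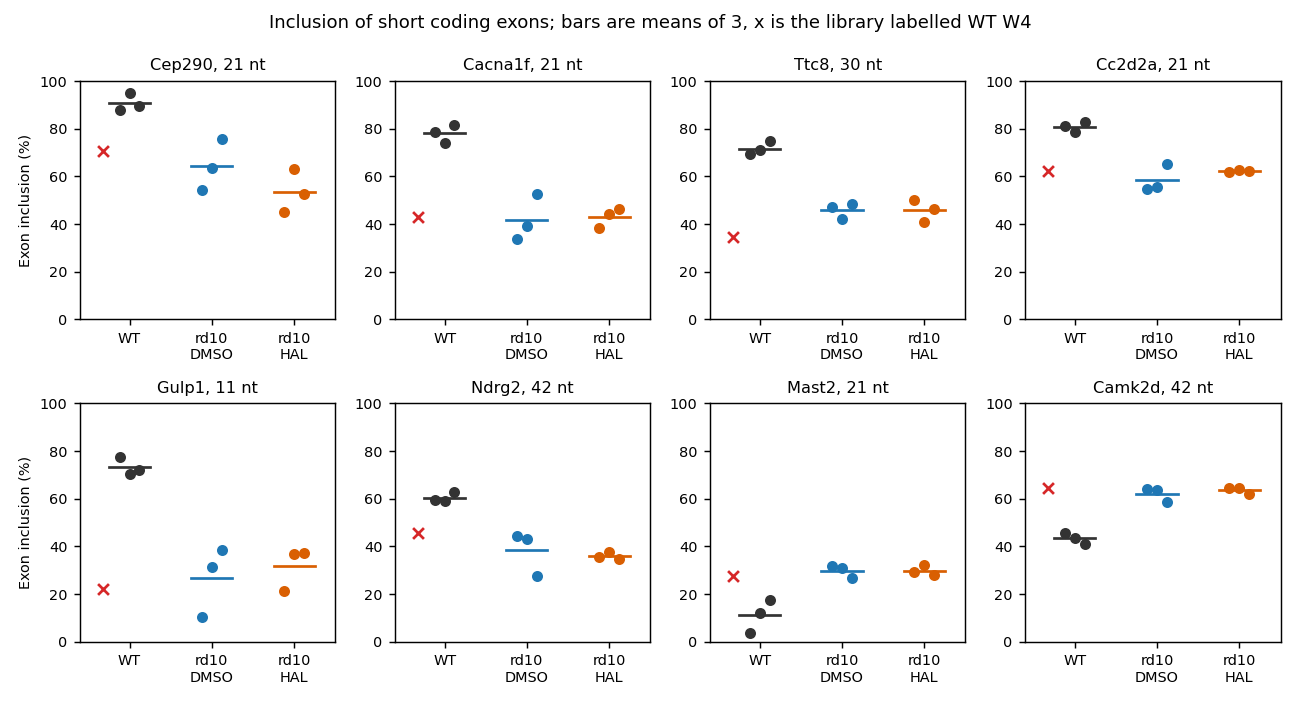
Inclusion of 8 short coding exons (vertical axis, % of the transcripts that hold or skip the exon) per library; points are libraries, bars the means of 3 and the x is the library labelled WT W4. The first 6 exons lie lower in every rd10 library than in W1 to W3 and those of Mast2 and Camk2d higher, and W4 lies below W1 to W3 in the first 6 panels and above them in the last 2.

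Beyond short exons, the compared transcripts of called genes differed in the first exon in 44.8% of genes, in the last exon in 22.3%, by a cassette exon in 33.6%, by an exon of 27 nt or less in 4.45%, by a retained intron in 17.1% and by an alternative splice site in 16.2%. In genes not called these shares were 44.0%, 22.4%, 29.1%, 2.32%, 17.3% and 23.3%. The coding sequence differed in 391 of 741 called pairs (52.8%) and in 49.8% of the others.

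Genes were then grouped by function, and the counts were read against 11.1% of all members and against 20.5% of the 1758 members with the highest counts, since all 8 lists had a median count above that of all members (1051). By total count, 2036 of all 7033 members rose and 2726 fell, and the counts of the lists are read beside these. Of 41 members for phototransduction and the outer segment, 8 (19.5%) were called: Crb1, Gngt2, Gnb1, Gnb5, Prom1, Atp1b2, Prcd and Mpp4, while 34 of the 41 fell in total count. Pde6b itself had the same makeup in both genotypes, with Pde6b-201 at 76.8% ± 0.677 and 76.9% ± 1.56, as its total count fell by 3.59 on the log2 scale. Prph2, a disc rim protein gene (Prph2-201 at 90.0% and 87.8%), was not called (gene-level adjusted p of edgeR = 0.649). In Gngt2, the cone transducin γ subunit gene, Gngt2-205 fell from 34.6% ± 5.36 to 14.7% ± 5.85 (edgeR adjusted p = 0.00801, and up to 0.141 without W1, W3 or D2), and Gngt2-202, which has another first exon and the same coding length, rose from 19.3% ± 7.49 to 38.8% ± 3.19. In Prom1, a disc morphogenesis gene, Prom1-208 rose from 1.67% ± 1.27 to 16.2% ± 4.77 (edgeR adjusted p = 2.00e-05). In Gnb5, which forms the complex that ends the light response, Gnb5-206 was at 28.9% ± 1.72 in WT and 46.1% ± 2.92 in rd10 (transcript-level adjusted p of edgeR = 0.272, gene-level 0.0201).

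Of 57 cilium and transition zone members 5 (8.77%, near the share of all members) were called, Cep290, Cc2d2a, Ttc8, Wdr35 and Rab28, and 43 of the 57 fell in total count. Wdr35-201, of an intraflagellar transport gene, was at 76.2% ± 6.36 in WT and 58.1% ± 13.97 in rd10, with overlapping groups. Crocc (rootletin) and Pcdh15, the members with the most counts among those not called, had a leading transcript at 73.0% and 67.9% (Crocc-203) and at 53.1% and 54.8% (Pcdh15-234).

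Synapse genes were called in 22 of 74 members (29.7%), and of the 74 members 42 rose and 23 fell in total count. Dlg4 encodes the scaffold PSD-95: Dlg4-204 fell from 18.7%, 19.1% and 22.1% in W1 to W3 to between 1.18% and 5.30% in the 6 rd10 libraries (edgeR adjusted p = 5.04e-11), and Dlg4-201 rose from 2.79% ± 1.20 to 12.4% ± 2.29. Dlg4-204 and Dlg4-201 each reached the 10% minimum in 1 genotype only, so that their selection used the difference, and W4 had 2.48% of Dlg4-204. Dlg4-203 rose from 21.7% ± 2.17 to 44.8% ± 5.23 (edgeR adjusted p = 0.0262). That call held in only 3 of the 9 fits that left out a library, with an edgeR adjusted p of up to 0.195. Slc17a7, the vesicular glutamate transporter gene of photoreceptors and bipolar cells, lost its retained-intron transcript Slc17a7-204 from 33.8% ± 3.64 to 14.7% ± 9.52 (edgeR adjusted p = 0.00635, and up to 0.0844 without W1 or W3). D3 kept 33.8% of it, within the WT range of 30.0% to 37.2%, while the other 5 rd10 libraries had 8.87% to 13.6%. Kif1b-207, of a synaptic vesicle kinesin gene, fell from 28.8% ± 1.44 in WT to 14.3% ± 1.58 in rd10 (edgeR adjusted p = 0.00118). The calls of Slc17a7-204 and Kif1b-207 were lost with the rd10 DMSO libraries only. Kif1a, an axonal kinesin gene with many counts, was not called (gene-level adjusted p of edgeR = 0.0930).

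The cytoskeleton and adhesion list had the highest share of calls, 24 of 66 members (36.4%), and of the 66 members 37 rose and 15 fell in total count. Epb41l2, a protein 4.1 gene that links actin to the membrane, gave the smallest p-value of the named transcripts: Epb41l2-207 was at 4.79%, 6.76% and 5.58% in W1 to W3, at 28.5%, 30.7% and 26.96% in D1 to D3 and at 33.4%, 31.3% and 28.6% in H1 to H3, with W4 at 30.1%. It rose from 5.71% ± 0.993 to 29.9% ± 2.31 (edgeR adjusted p = 1.94e-15), and Epb41l2-204 fell from 44.5% ± 1.05 to 28.3% ± 1.70. In Map2, the dendritic microtubule protein gene, Map2-201 was at 0% in W1 to W3 and at 1.05% to 18.6% in rd10 (edgeR adjusted p = 1.98e-10, quasi-binomial 0.847) and was tested only because it passed 10% in rd10, and Map2-202, which has another first exon, was at 63.2% ± 0.647 and 32.9% ± 7.11. Add3-213 (adducin) was at 59.2% ± 5.90 and 39.2% ± 8.08, and Epb41-202 at 52.8% ± 3.93 and 35.7% ± 7.89, with D3 (51.2%) inside the WT range. Ank3 and Myo5a, with the most counts among members not called, differed by -1.07 points (Ank3-231) and -2.75 points (Myo5a-206).

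Metabolic genes were called in 11 of 35 members (31.4%), and of the 35 members 6 rose and 14 fell in total count. Pkm encodes pyruvate kinase, whose M1 and M2 forms use mutually exclusive exons of equal length, printed below because they carry the difference; Pkm-202 holds the M1 exon (chr9:59675029-59675195, GRCm38) and Pkm-201 the M2 exon (chr9:59675568-59675734).
Pkm-202, 167 nt exon: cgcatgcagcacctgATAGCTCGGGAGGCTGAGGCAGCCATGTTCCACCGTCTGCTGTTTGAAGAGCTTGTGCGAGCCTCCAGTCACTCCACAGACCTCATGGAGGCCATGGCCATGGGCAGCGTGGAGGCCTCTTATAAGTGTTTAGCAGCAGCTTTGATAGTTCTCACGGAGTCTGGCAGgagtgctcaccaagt
Pkm-201, 167 nt exon: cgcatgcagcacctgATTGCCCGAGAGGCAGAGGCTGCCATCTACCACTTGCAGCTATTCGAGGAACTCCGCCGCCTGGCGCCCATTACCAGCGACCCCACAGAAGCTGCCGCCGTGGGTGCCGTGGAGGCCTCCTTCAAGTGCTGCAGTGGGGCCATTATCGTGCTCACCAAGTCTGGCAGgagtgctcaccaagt

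The M1 form Pkm-202 was at 29.2%, 28.4% and 29.4% in W1 to W3, at 44.1%, 44.6% and 43.0% in D1 to D3 and at 43.2%, 40.5% and 43.5% in H1 to H3. W4 was at 49.8%. The M2 form Pkm-201 was at 65.3% ± 0.622 in WT and 52.6% ± 1.60 in rd10. The groups did not overlap for either form, and usage was called at the gene level (edgeR adjusted p = 1.31e-06) but not for Pkm-202 alone (0.109). Hk1-202, of the hexokinase gene, was at 19.7% ± 1.47 and 32.1% ± 2.44, and Eno2-201, of neuronal enolase, at 55.5% ± 4.28 and 67.2% ± 2.73. Vdac1 and Acsl3 were the most abundant members not called, at a gene-level adjusted p of 0.910 and 0.958 with edgeR.

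Among glial and microglial genes 5 of 20 members (25%) were called, Ndrg2, Cp, Cd44, H2-D1 and Aplp2, and 17 of the 20 rose in total count. Ndrg2-202, without the 42 nt exon, rose from 32.5% ± 1.08 to 54.4% ± 5.29 (edgeR adjusted p = 0.0225, up to 0.196 without a WT library and 0.117 with a batch term). Cp-201 (ceruloplasmin) was at 41.3% ± 3.55 and 30.0% ± 1.67, and Cd44-203 at 55.7% ± 11.1 and 41.1% ± 2.89 with overlapping groups. Apoe and Psap were not called at the gene level (edgeR adjusted p = 0.377 and 0.440). Psap-205, the leading transcript, still fell from 81.7% ± 4.50 in WT to 67.8% ± 1.93 in rd10 without overlap (quasi-binomial adjusted p = 0.00588). Psap, a lysosomal protein gene, differed between the rd10 treatments: Psap-203 was at 18.2%, 20.05% and 27.9% in D1 to D3 and at 0.412%, 0.950% and 0.736% in H1 to H3 (edgeR adjusted p = 0.0181), and at 10.6%, 0.371% and 15.9% in W1 to W3. Psap-203 reached the 10% minimum in rd10 only, through the DMSO libraries, so that its selection used the difference. Psap-202 lay the other way, at 0.204% to 11.6% in D1 to D3 and 24.5% to 28.5% in H1 to H3 (edgeR adjusted p = 0.814). Of 47 members for inner retinal neurons 7 (14.9%) were called, and 43 rose in total count. Meis2-206, of a homeobox gene of amacrine cells, rose from 10.4% ± 7.95 to 29.4% ± 4.85 (edgeR adjusted p = 0.0136, up to 0.258 without W2, W3 or D1, and 0.0712 with the quasi-binomial model), Cacnb4-202 was at 55.5% and 38.5% with overlapping groups, and Atp2b4-201 at 21.9% and 35.3%. Trpm1 and Pax6, markers of bipolar and amacrine cells, were not called (edgeR gene-level adjusted p = 0.731 and 0.351).

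**Figure D4:**
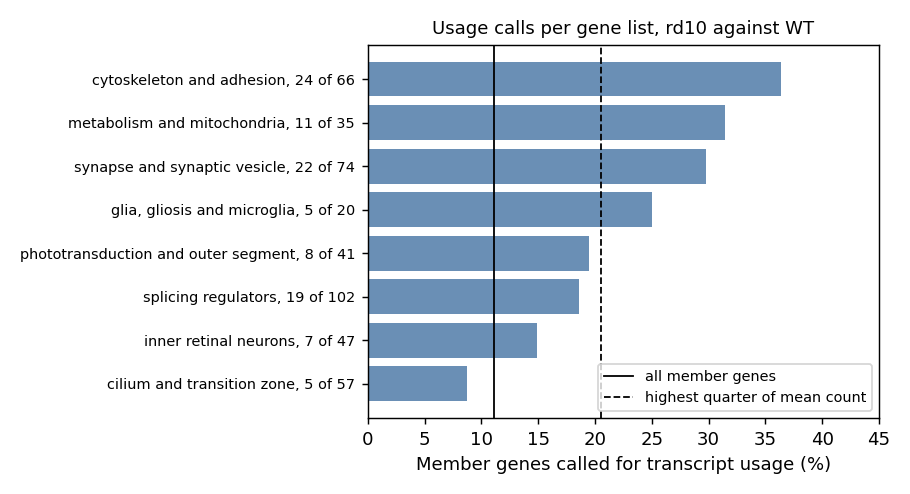
Share of member genes called for transcript usage (horizontal axis, %) in 8 gene lists, with the number called and the number of members; the solid line marks all members (11.1%) and the dashed line the 1758 with the highest counts (20.5%). The cytoskeleton list reaches 36.4% and the cilium list 8.77%.

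Splicing regulators were themselves members in 102 cases, of which 19 (18.6%) were called. Celf1-205 fell from 27.2%, 27.9% and 28.1% in W1 to W3 to 11.5%, 9.70%, 17.1%, 7.79%, 10.3% and 10.1% in D1 to D3 and H1 to H3 (edgeR adjusted p = 0.00110), with a first exon other than that of Celf1-203. This call was lost with the rd10 DMSO libraries only. Clk2-207, a retained-intron transcript of a kinase of splicing factors, was at 43.6% ± 1.30 and 30.2% ± 4.62, Hnrnph3-201 at 22.8% ± 6.13 and 35.96% ± 2.31, and Prpf3-207 at 51.7% ± 9.97 and 31.99% ± 10.4 with overlapping groups. The 36 nt exon of Mbnl2 was included at 48.3% ± 1.38 in WT and 35.7% ± 5.93 in rd10. Ddx5-208, a nonsense-mediated decay transcript of an abundant helicase gene, was at 61.6% ± 1.32 and 49.8% ± 1.63 without overlap, at a gene-level adjusted p of 0.0608 with edgeR. Ddx17 was not called (0.893).

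Of 116 splicing regulators 1 (Esrp2) was not tested by total count, 67 fell and 17 rose, beside 28.9% and 30.0% of all genes tested, with a median log2 change of -0.23 against 0.01 over all genes tested. The largest called decreases were those of Esrp1, an epithelial regulator (3.13 CPM in WT and 1.09 CPM in rd10, log2 change -1.52 ± 0.19, SE), Mbnl1 (200 and 95.8 CPM, -1.06 ± 0.05) and Hnrnpf (268 and 138 CPM, -0.96 ± 0.08). The largest increases were those of the neuronal regulators Nova2 (31.0 and 60.7 CPM, 0.97 ± 0.06), Rbfox3 (22.2 and 41.2 CPM, 0.89 ± 0.16) and Elavl3 (102 and 181 CPM, 0.83 ± 0.09). Msi1 and Msi2, the Musashi genes, and Srrm4 were looked up after the exons were seen. Msi1 was at 563 CPM in WT and 389 CPM in rd10 (-0.53 ± 0.11, edgeR adjusted p = 0.00140), Msi2 at 479 and 394 CPM (-0.28 ± 0.06, 0.00156), and Srrm4 at 133 and 209 CPM (0.65 ± 0.07, 7.94e-06). Scaling by library size alone moved the median of all genes to 0.25 and left Msi2 at -0.04 with an adjusted p of 0.542, while Msi1 (-0.29) and Srrm4 (0.89) kept their direction. The part of these regulators in the exon differences was not tested.

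Transcripts without a coding sequence made up less of the protein-coding members in rd10. Averaged over genes, their share was 16.7%, 16.5% and 16.9% in W1 to W3 and 14.9%, 15.7%, 16.7%, 15.2%, 14.9% and 15.5% in D1 to D3 and H1 to H3, a difference of -1.20 points (two-sided exact permutation test over 84 splits, p = 0.0476). D3 lay within the WT range and W4 at 15.3%. Retained-intron transcripts gave most of this, with 12.3% ± 0.118 in WT and 11.3% ± 0.555 in rd10 (exact permutation p = 0.0357). Processed transcripts were at 4.41% and 4.17% (exact permutation p = 0.0476). Nonsense-mediated decay transcripts have an annotated coding sequence and are not part of that share. They were at 5.11% and 4.96% (exact permutation p = 0.0119, the smallest that 84 splits allow). The p of the first difference was at or above 0.0714 when any library other than D3 was left out and 0.0179 without D3. Of 2881 tested retained-intron transcripts 19 (0.659%) were called, 1 of them higher in rd10. Of 13028 tested protein-coding transcripts 176 (1.35%) were called, 99 of them higher. The directions over all tested transcripts of each type were not counted.

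The 2 treatments pooled in rd10 were also compared with each other on the same members. diffSpliceDGE called 46 genes (0.654%) and 11 transcripts (0.0599%) between H1 to H3 and D1 to D3. Of the 18366 transcripts tested, 464 had an unadjusted edgeR p under 0.05, and the quasi-binomial model called 0. Fitted against W1 to W3 on their own, the DMSO libraries gave 444 called genes and the HAL libraries 982. This difference was not tested and shares the WT libraries. D3 is 1 of the DMSO libraries, and leaving it out of the main comparison raised the called genes from 779 to 1282. D3, H2 and H3 are batch 2, so the treatments also differ in batch makeup. These counts cannot tell treatment apart from D3 or batch.

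The library labelled WT W4 was not used in any of these tests. For the 220 called transcripts its share was placed on a scale on which the rd10 mean is 0 and the WT mean is 1. The median position was -0.03, 199 transcripts (90.5%) were nearer to rd10, 146 lay within the range of the rd10 libraries and 19 within that of W1 to W3. With W4 counted as WT, 130 genes and 43 transcripts were called. Within rd10, the batch 2 mean was nearer to WT than the batch 1 mean in 142 of the 220. This was not counted over all tested transcripts. The rod marker sum was higher in each batch 2 library, and its part in these shares was not tested.

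**Figure D5:**
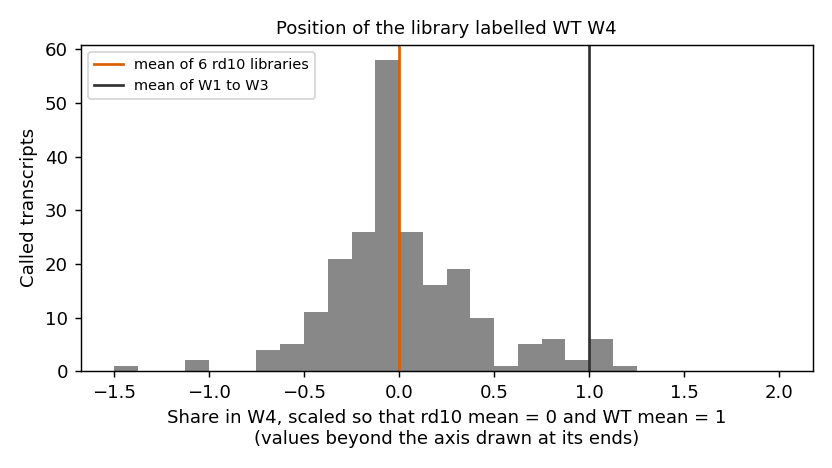
Number of called transcripts (vertical axis) by the position of their share in W4 on a scale from the rd10 mean (0) to the WT mean (1). The median is -0.03, and 199 of 220 transcripts lie below 0.5.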

How the data were processed

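The authors deposited estimated counts per Ensembl transcript, which per the study's methods and processing notes came from kallisto with GRCm39. Its version is not given in the sources used here. Transcripts were assigned to genes by identifier through GENCODE M21 (GRCm38): 133908 of 275112 (48.7%) matched, holding 97.4% to 97.7% of counts per library. For 10826 of 11491 genes (94.2%) the sum equalled the deposited gene count within 1 count. Depth was 15900825 to 39094544 counts.

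Counts were rounded, and a share is a transcript's percentage of its gene's assigned counts, not corrected for length. Transcripts below the 10% minimum entered as 1 pooled row per gene (at least 10 counts) that was not tested. Shares were tested with edgeR 4.0.16 (TMM, glmQLFit, diffSpliceDGE; R 4.3.3) over 3 WT and 6 rd10 libraries, and total counts with glmQLFTest. P-values were Benjamini-Hochberg adjusted over all genes or transcripts tested, at a threshold of 0.05. limma 3.58.1 (voom, diffSplice), DESeq2 1.42.0, a quasi-binomial model, other minimums, scalings and left-out libraries were alternatives.

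The members and gene lists were chosen with earlier results of these data known. Named are Pde6b, the 14 genes with the largest differences called at both levels without overlap, up to 4 called genes and 2 abundant members not called per list, and the 3 largest regulator changes in each direction; genes of the short exon set and Shroom2 were added after their values were seen. Some genes that fall under this rule are not reported here. The library labelled WT W4 was left out because it lacks rod transcripts.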

Additional observations from a re-analysis of the deposited data

Results flagged for a closer look

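In 7 of 83 transcripts tested for it, 1 rd10 library stood apart from the other 5, judged by its gap to the nearest library over the range of the 6 (critical value 0.625). Chance gives this in about 1 of 20 groups. D3 was the library in 5 of the 7. It was highest for Zfp710-202 (0.832), Slc17a7-204 (0.81), Kif1a-210 (0.864) and Epb41-202 (0.697) and lowest for Dlg4-203 (0.653). H2 was highest for Ubap2-202 (0.639), and H3 was lowest for Meis2-206 (0.678). D3 had the fewest counts and the highest rod marker sum of the rd10 libraries, and the part of either was not tested.

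The library labelled WT W4, which was left out of the comparisons except where named as an alternative, lay nearer to rd10 than to WT in 90.5% of called transcripts.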

How the results depend on the processing

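No paired analysis was possible because the labels do not pair WT with rd10 libraries. Called transcripts (220) numbered 1437 with limma, 1589 with DESeq2, 852 with the quasi-binomial model, 335 and 127 at share minimums of 5% and 20%, 43 with W4 included, 140 with DMSO libraries only, 378 in batch 1 and 156 to 387 with 1 library left out. Called genes (779) numbered 462 with the quasi-binomial model, 130 with W4, 444 with DMSO libraries only and 491 to 1282 with 1 library left out. Called genes with another leading transcript (132) numbered 19 with W4, 206 in batch 1 and 100 to 218 with 1 library left out. Halofantrine calls (11) numbered 75 with limma, 119 with DESeq2, 0 with the quasi-binomial model, 18 at a gene minimum of 30, 7 without the pooled rows and 10 to 40 with 1 library left out. Genes with a changed total count (10670) numbered 4877 with W4. The noncoding share difference was -1.19 at a gene minimum of 30, -0.86 with W4, -0.94 with DMSO and -1.47 with HAL libraries only, -1.44 in batch 1 and -1.45 to -1.08 with 1 library left out, where the exact permutation p was 0.0179 to 0.143. It was -1.84 with counts pooled over genes and -1.45 with shares of counts per transcript length. The direction turned for Pde6b-201 with W4 (-0.142) and HAL only (-1.004; -0.361 to 0.512 with 1 library left out), Vdac1-201 (-0.227 in batch 1; -0.148 to 0.851 with 1 library left out), Acsl3-205 (-0.743 in batch 1) and Ank3-231 (0.0841 per length), none of them called. The cause of these differences was not tested. Of 40 called named transcripts, 23 stayed called whichever library was left out and 6 with W4 included. Transcripts absent from GENCODE M21 were not counted, and near-identical transcripts share reads, which limits their shares.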
